A study of Mus musculus with 27 samples.

Results

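Macroautophagy is the route by which a cell wraps part of its cytoplasm in a double membrane and delivers it to the lysosome, and 34 genes of its core machinery were followed in the livers of old mice on 4 diets. The genes were taken as a list of symbols, by their known roles, and with earlier results of these data known. Of the 34 genes, 31 had a transcript cluster on the array that carried their symbol alone, out of 18820 genes named in this way, and 29 of these passed the filter on low and flat signals, out of 13993 genes that did. Becn1, a scaffold of the class III PI3 kinase complexes, and Atg4d, an ATG4 protease, appeared only on clusters shared with other symbols and were not used. Optn, a receptor for ubiquitin-tagged cargo, was not analysed here. Ambra1, a regulator of the Beclin complex, and Nbr1, a receptor for ubiquitin-tagged cargo, had an interquartile range across arrays of 0.0870 and 0.0999 and stayed just under the filter of 0.1, while Gabarap at 0.1005 and Wipi2 at 0.110 stayed just above it.

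Liver RNA came from 27 male C57BL/6J mice aged 28 months, with 1 array per mouse, and diets began at 9 weeks of age. The 8 C mice ate the control diet AIN-93W ad libitum. The 5 CR mice received daily portions at 30% calorie restriction of AIN-93W-CR, a version of that diet enriched in vitamins and minerals. The 7 MF mice ate the medium-fat diet AIN-93W-MF, with 25% of the energy as fat, ad libitum. The 7 mice with the diet switch, called CR-MF, were restricted like the CR mice until 24 months of age and then ate the MF diet for 4 months. Before sacrifice, all mice were fasted for 4 h, received a gavage of carboxymethyl cellulose solution and were fasted for 6 h more, and the CR mice had been given part of their daily portion shortly before the first fast, so that this meal and the CR diet cannot be told apart. The comparisons ask how long-term restriction, long-term MF feeding and a late change from the one to the other bear on the transcripts of the autophagy machinery.

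In the liver, autophagy supplies amino acids, lipids and glucose precursors during fasting and clears damaged mitochondria and protein aggregates. The ULK1 kinase complex starts the process, the class III PI3 kinase complexes mark the forming membrane with PI3P, and ATG9 vesicles and ATG2 lipid transfer proteins feed that membrane with lipid. Ubiquitin-like conjugation enzymes then attach ATG8 proteins (the LC3 and GABARAP families) to the membrane, ATG4 proteases trim and recycle the ATG8 proteins, and receptors such as p62 tie the cargo to them. Much of this control acts on the proteins, and transcript levels are no measure of flux through the pathway.

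A window of 300 bases around the annotated start was given by RefSeq (assembly GRCm38.p6) for 28 of the 34 genes, those without an entry being Rb1cc1, Becn1, Pik3c3, Atg12, Atg16l1 and Map1lc3a. The promoters of Atg9a and Atg2a are shown because the diet differences described next turned on these genes, and that of Atg3 because it was the 1 promoter among the 28 that held the core of the CLEAR element (TCACGTGA), the motif known for binding the lysosomal and autophagy regulator TFEB. Each is written 5′ to 3′ on the strand of the gene, with motif matches in capitals. The Atg9a window lies at chr1:75191961-75192260 on the minus strand, the Atg2a window at chr19:6241418-6241717 on the plus strand and the Atg3 window at chr16:45158579-45158878 on the plus strand.
Atg9a: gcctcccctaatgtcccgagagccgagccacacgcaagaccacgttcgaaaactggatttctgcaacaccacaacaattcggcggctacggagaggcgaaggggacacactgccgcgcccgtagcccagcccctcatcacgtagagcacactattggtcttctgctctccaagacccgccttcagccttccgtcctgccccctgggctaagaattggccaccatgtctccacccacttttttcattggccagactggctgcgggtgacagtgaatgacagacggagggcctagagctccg
Atg2a: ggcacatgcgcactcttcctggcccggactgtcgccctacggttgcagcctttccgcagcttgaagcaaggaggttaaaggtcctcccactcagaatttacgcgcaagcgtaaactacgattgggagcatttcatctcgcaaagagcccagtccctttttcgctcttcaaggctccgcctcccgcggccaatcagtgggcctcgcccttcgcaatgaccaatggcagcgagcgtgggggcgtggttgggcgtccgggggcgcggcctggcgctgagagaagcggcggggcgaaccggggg
Atg3: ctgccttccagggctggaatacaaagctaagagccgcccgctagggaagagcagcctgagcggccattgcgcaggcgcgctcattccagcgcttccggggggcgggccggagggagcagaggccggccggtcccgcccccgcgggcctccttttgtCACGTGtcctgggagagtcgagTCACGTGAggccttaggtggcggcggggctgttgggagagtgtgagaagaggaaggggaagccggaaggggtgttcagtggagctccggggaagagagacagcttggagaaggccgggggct
In the Atg3 promoter, both runs of capitals hold an E-box (CACGTG), and the second is the E-box within the CLEAR core. Matches were sought on both strands of all windows. The E-box was present in 4 of the 28 promoters (14.3%; Atg14, Atg3, Atg5 and Atg7), against 8.09% of 27025 genes. The CLEAR core, which contains the E-box, was present in 1 (3.57%), against 1.12% of all genes. The FOXO motif GTAAACA was present in 0 of 28, against 4.05%. The antioxidant element TGACNNNGC was present in 3 (10.7%; Ulk2, Atg13 and Map1lc3b), against 14.0%. Neither the Atg9a nor the Atg2a window held any of these letters. Over the 31 windows of the 28 genes, the median GC content was 60.0%, against 52.7% over 32851 promoters, and the motif shares were not adjusted for it.

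The values are log2 intensities, so that a difference of 1 is a 2-fold change in intensity, and levels of different genes were not set against each other because each has its own probes. Median intensity lay between 5.38 and 5.48 per array. The hepatocyte markers had mean levels between 11.9 and 13.6. Array names carry codes that were read as plates (G150, G151 and G152) and well rows, although the labels do not say what the codes mark. Plates G151 and G152 carried a single mouse of each diet, and G150 carried the rest (6 on C, 3 on CR and 5 each on CR-MF and MF). The well row was F for all 8 C mice and 3 CR mice, G for all 7 MF mice and the other 2 CR mice, and H for all 7 CR-MF mice. The row therefore cannot be told apart from the diet in MF against C or in any comparison with CR-MF, and only the CR mice, which all lay in row F on G150, link rows F and G.

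The machinery as a whole varied little in these livers. Within groups, the SD of a gene had a median of 0.14 over the 29 genes tested, against 0.19 over all genes tested, and the Gabarap SD of 0.06 was the lowest of the 13993 genes that passed the filter. Flat genes had been removed by that filter, which Gabarap passed narrowly (interquartile range 0.1005), and the genes compared were not matched for signal level. The span between the highest and the lowest group mean ranged from 0.01 for Atg12, the ubiquitin-like protein joined to ATG5, to 0.41 for Atg2a, with a median of 0.16 against 0.19 over all genes. The mean of the 29 genes in a mouse, each gene centred on its mean over all arrays, averaged -0.02 ± 0.05 in the 8 C livers (mean ± SD), -0.0049 ± 0.084 in the 5 CR livers, 0.03 ± 0.05 in the 7 CR-MF livers and -0.01 ± 0.08 in the 7 MF livers, and all 4 groups overlapped. A test of any difference among the 4 groups (limma's F test, adjusted over all genes) called 2 of the 29 genes, Atg9a and Atg2a, where 3.62% of all genes were called.

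**Figure D1:**
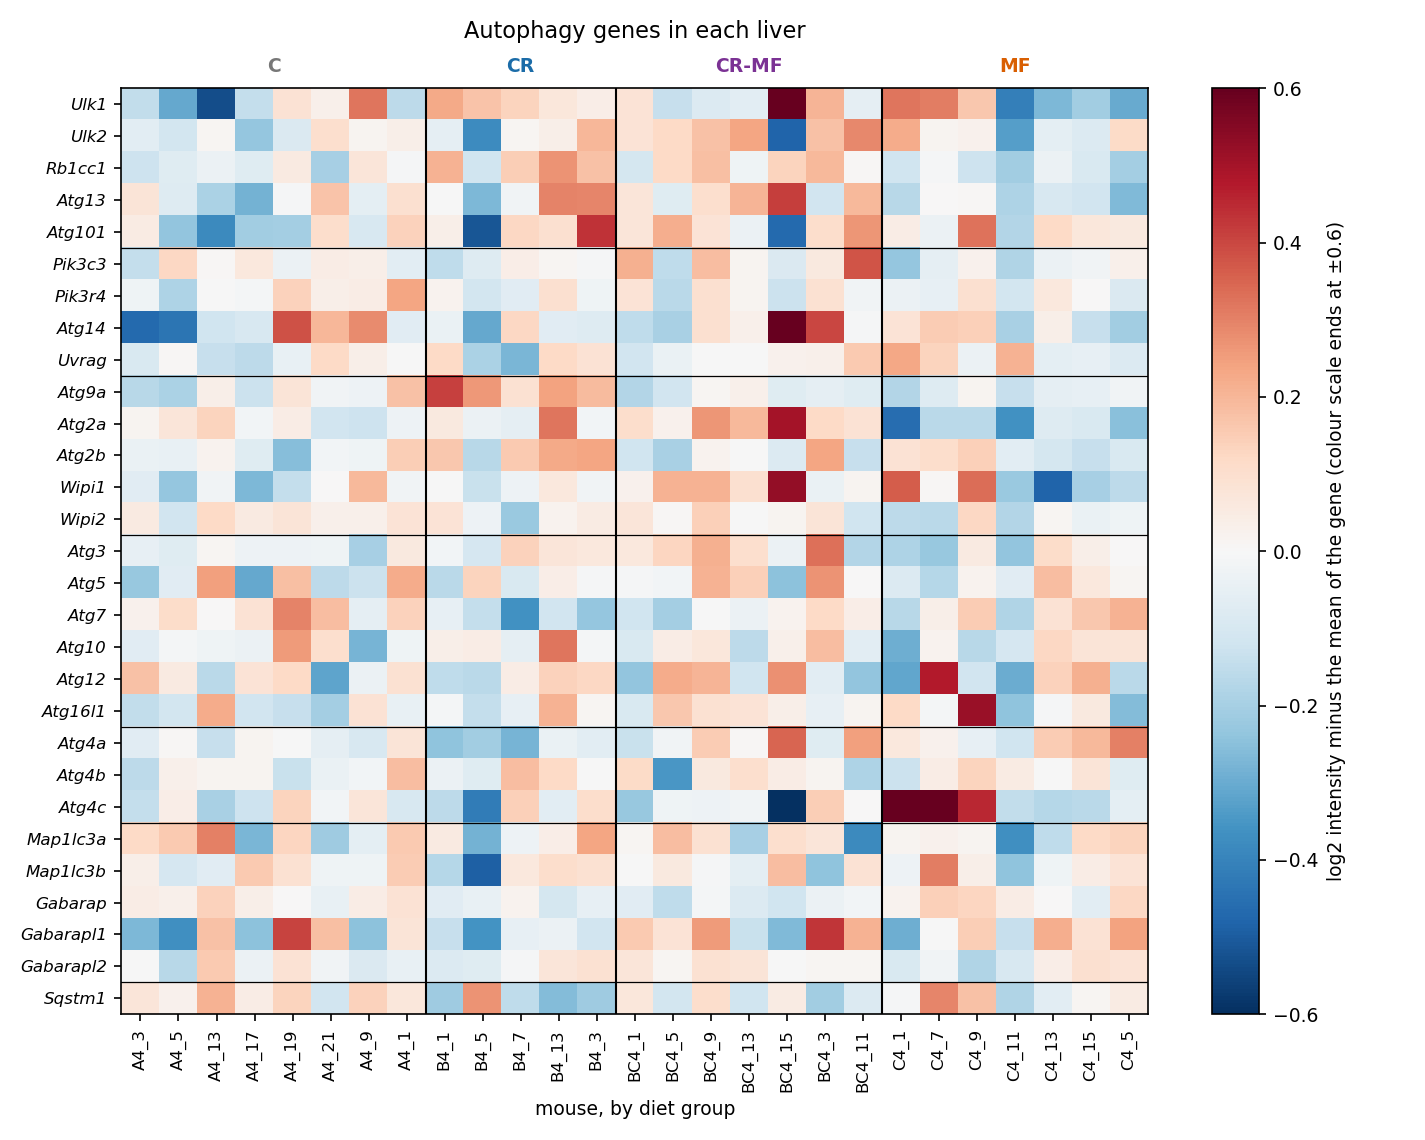
Log2 intensity of the 29 tested autophagy genes minus the mean of each gene over all arrays (colour scale, ending at ±0.6 log2), with 1 column per mouse ordered by diet group (8 C, 5 CR, 7 CR-MF, 7 MF) and horizontal lines between functional groups. By group mean, the row of Atg9a is highest in the CR mice and that of Atg2a is lowest in the MF mice, with C mice reaching into both ranges. Most other rows show no block that follows a diet group.

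MF and CR livers differed in 3 of the 29 genes. Atg9a, Atg2a and Rb1cc1 were lower in MF than in CR livers, and 0 genes were higher. Over all genes, 2.62% were called lower and 2.8% higher in MF (adjusted p under 0.05). At an unadjusted p under 0.01, 5 of the 29 genes differed, 3 lower and 2 higher in MF, where 10.5% of all genes did. The median difference, MF minus CR, was -0.01 over the 29 genes and -0.01 over all genes. For 28 of the 29 genes the 95% interval of the difference lay within 0.5 of 0 on the log2 scale. The exception was Atg4c, with an upper bound of 0.64. On plate G150 alone, with fewer arrays, and in a fit with the well row as a block, 0 of the 3 calls passed.

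Atg9a encodes the scramblase whose vesicles seed the autophagosome membrane. In the 5 CR livers its levels were 8.71, 8.82, 8.87, 8.88 and 9.03. The 7 MF livers ran from 8.45 to 8.64 with a median of 8.57, the 7 CR-MF livers from 8.45 to 8.65 with a median of 8.55, and the 8 C livers from 8.43 to 8.80 with a median of 8.60. Every CR mouse lay above every MF and CR-MF mouse, while CR and C overlapped through 1 C mouse. The level in MF livers was lower than in CR livers by 0.31 ± 0.06 on the log2 scale (difference -0.31 ± 0.06, SE, adjusted p = 0.0082 from limma), a 1.24-fold difference. Within plates the difference was -0.34 on G150, -0.29 on G151 and -0.21 on G152. As the CR and MF levels did not overlap, the sign of this difference could not change from plate to plate.

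After the change of diet at 24 months, Atg9a levels overlapped with those of lifelong MF feeding and not with those of CR. Atg9a was lower in CR-MF than in CR livers by 0.30 (difference -0.30 ± 0.06, SE, adjusted p = 0.026), and within plates the difference was -0.32, -0.29 and -0.27. Between CR-MF and MF the difference was 0.01, with a 95% interval from -0.11 to 0.13. Against the control diet, Atg9a was higher in CR livers by 0.27 ± 0.06 (SE, adjusted p = 0.028), with differences of 0.32, 0.27 and 0.02 on the 3 plates. With only the groups compared in the fit, the differences from CR-MF and from C did not pass (adjusted p = 0.12 and 0.058). The differences of Atg9a from CR rest on the same 5 CR arrays. Without the CR mouse B4_1, which had the highest level, MF livers were still lower (adjusted p = 0.030), whereas the differences of CR-MF and of C from CR no longer passed (adjusted p = 0.092 and 0.094). The call against CR-MF was also lost without BC4_1, B4_3 or BC4_11, and that against C without A4_3, A4_5, A4_17, B4_13 or B4_3.

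Atg2a encodes a rod-like protein that carries lipids from the endoplasmic reticulum into the growing membrane. Its levels in the 7 MF livers ran from 8.13 to 8.50 with a median of 8.42. In the 7 CR-MF livers they ran from 8.61 to 9.08 with a median of 8.71. The 2 groups on the MF diet at sacrifice did not overlap, the mice that came to it from restriction being higher. The difference, CR-MF minus MF, was 0.41 ± 0.07 (SE, adjusted p = 0.0061), a 1.33-fold difference, and it was 0.46, 0.21 and 0.33 on the 3 plates. The adjusted p stayed between 0.0037 and 0.018 when each mouse was left out in turn. Without BC4_15, the mouse with the highest level, the difference was 0.36 (adjusted p = 0.011).

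The CR livers had Atg2a levels of 8.53, 8.55, 8.57, 8.64 and 8.90, all above those of the MF mice. The 8 C livers ran from 8.46 to 8.72 with a median of 8.58 and overlapped with all other groups. The difference between MF and CR was -0.28 ± 0.08 (SE, adjusted p = 0.043), with -0.23, -0.41 and -0.23 on the 3 plates, and it no longer passed with the plate as a block (adjusted p = 0.0503), without the filter (0.057) or with only the groups compared (0.091). This call was lost without any one of 10 mice (A4_3, B4_1, B4_3, B4_13, BC4_13, C4_1, C4_5, C4_7, C4_9 or C4_11), the adjusted p then reaching 0.14. CR-MF minus CR was 0.13, with a 95% interval from -0.04 to 0.30 (adjusted p = 0.55). In MF against C livers, Atg2a was the 1 gene of the 29 with an unadjusted p under 0.05 (difference -0.22 ± 0.07, SE), and it did not pass the adjustment over all genes (adjusted p = 1.00).

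**Figure D2:**
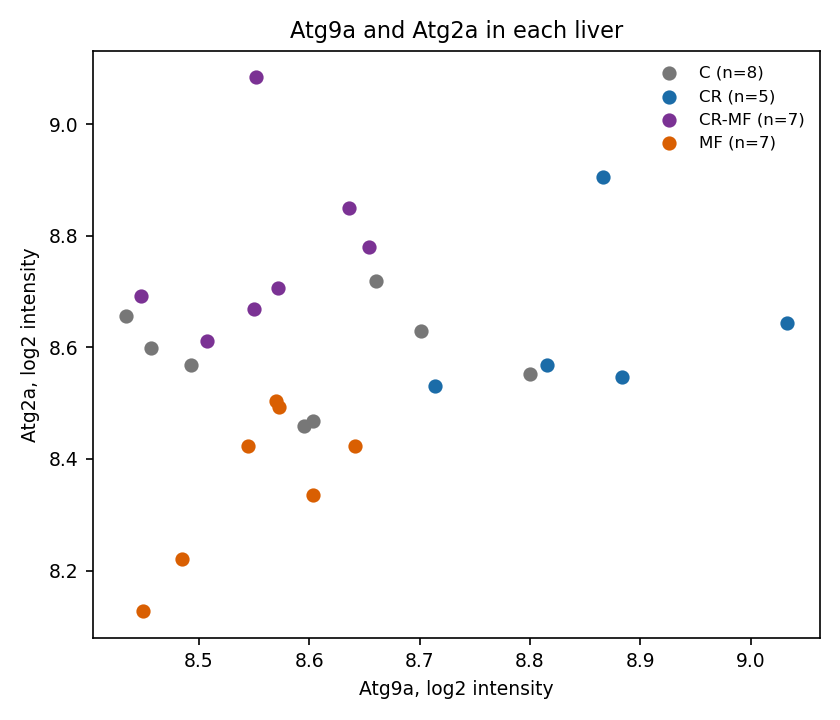
Log2 intensity of Atg2a (vertical axis) against that of Atg9a (horizontal axis) in each of the 27 livers, 1 point per mouse coloured by diet group. CR mice lie to the right of all MF and CR-MF mice, with Atg9a from 8.71 to 9.03, and CR-MF mice lie above all MF mice, with Atg2a from 8.61 to 9.08 against 8.13 to 8.50.

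Rb1cc1 encodes FIP200, the large scaffold of the ULK1 complex. In CR livers its levels were 7.99, 8.26, 8.29, 8.32 and 8.38. The MF livers ran from 7.90 to 8.10 with a median of 7.99, the CR-MF livers from 8.01 to 8.31 with a median of 8.23, and the C livers from 7.91 to 8.18 with a median of 8.06. Of the 5 CR mice, 4 lay above all MF mice, and B4_5 lay within their range. The level in MF livers was lower, with a difference from CR of -0.25 ± 0.07 (SE, adjusted p = 0.033), and it was -0.18, -0.36 and -0.38 on the 3 plates. The call was lost without any one of 7 mice (B4_1, B4_3, B4_7, B4_13, C4_1, C4_5 or C4_11), with an adjusted p up to 0.096. A second, dimmer transcript cluster of Rb1cc1 gave a difference of -0.04, and with both averaged the call was lost (adjusted p = 0.21). CR-MF minus MF was 0.18 ± 0.06 (SE) and CR minus C was 0.19 ± 0.07, and neither passed the adjustment (adjusted p = 0.14 and 0.12).

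Markers of other liver cell types differed in several of the same comparisons. The score of a marker list is the mean of its genes in a mouse, each centred over all arrays. For lipid-associated macrophages (5 of 6 markers measured) it ran from -0.86 to -0.39 in CR, -0.28 to 0.69 in MF, -0.36 to 1.16 in C and -1.09 to 0.86 in CR-MF livers, and 2 of the 5 markers were higher in MF than in CR. For stellate cells and fibroblasts (8 of 8 measured) the score ran from -0.29 to -0.14 in CR and from -0.06 to 0.42 in MF, with 2 of 8 higher in MF. The T cell score (6 of 7 measured) ran from -0.72 to -0.45 in CR and from -0.55 to 1.20 in MF, with 1 of 6 higher. Among these, Cd3d passed the filter, although its mean level of 4.25 lay below the intensity threshold of 4.32. The hepatocyte score (9 of 10 measured, 5 tested) ran from -0.05 to 0.20 in CR and from -0.10 to 0.01 in MF, with 2 of 5 lower in MF. Of the other lists, 1 of 10 Kupffer cell markers was lower and 1 of 7 endothelial markers higher in MF than in CR. Over the 10 Kupffer cell markers the median difference was 0.33, opposite in sign to the called marker. Their score ran from -0.51 to 0.13 in CR and from -0.63 to 0.50 in MF. Among B and plasma cell, cholangiocyte and adipocyte markers, 0 of 5, 0 of 4 and 0 of 2 tested were called. Between CR-MF and MF, where Atg2a differed, 1 of 5 lipid-associated macrophage, 1 of 6 T cell and 1 of 4 cholangiocyte markers were lower in CR-MF. The median differences of these lists were -0.76, 0.06 and -0.37, so that the T cell list as a whole was not lower. Between CR and C, where Atg9a differed, 1 of 5 lipid-associated macrophage and 1 of 6 T cell markers were lower in CR. Between CR-MF and CR, where Atg9a differed as well, limma called 0 markers of any list. In bulk liver, fewer cells of a type and less RNA per cell cannot be told apart, and the part of these cells in the autophagy gene differences was not tested.

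**Figure D3:**
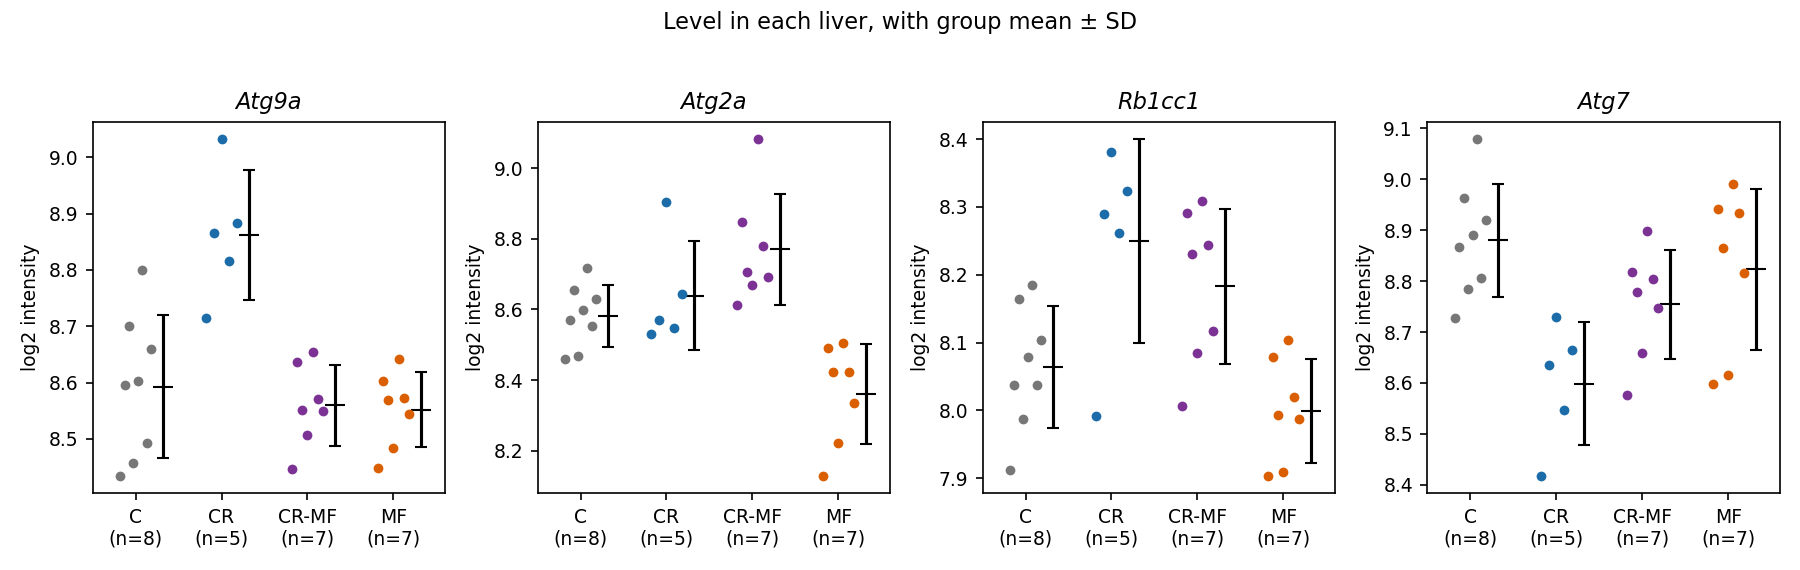
Log2 intensity of Atg9a, Atg2a, Rb1cc1 and Atg7 in each liver by diet group (points), with the group mean ± SD beside the points; each panel has its own vertical axis. The CR mean is the highest of the 4 for Atg9a (8.86) and Rb1cc1 (8.25) and the lowest for Atg7 (8.60), and the MF mean is the lowest for Atg2a (8.36).

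The other initiation genes did not pass the test in any comparison. Ulk1, the kinase itself, had mean levels of 9.28 in C, 9.51 in CR, 9.47 in CR-MF and 9.33 in MF livers. Its MF minus CR difference was -0.18, with a 95% interval from -0.48 to 0.11. Atg13, the subunit that joins the kinase to FIP200, was measured at 9.20, 9.45, 9.47, 9.76 and 9.76 in the CR livers, and ran from 9.20 to 9.48 (median 9.35) in MF, 9.35 to 9.88 (median 9.57) in CR-MF and 9.19 to 9.64 (median 9.44) in C livers. All groups overlapped, and CR-MF minus MF was 0.23 ± 0.09 (SE, adjusted p = 0.20). Ulk2, a paralogue of the kinase, and Atg101, a partner of Atg13, had group means within 8.87 to 9.00 and within 6.92 to 7.08.

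Among the nucleation genes, 4 of 6 were tested and 0 were called in any comparison by limma or by the intensity-based moderated statistic. The 1 unadjusted p under 0.05 was that of Pik3c3, the PI3 kinase VPS34, with a CR-MF minus MF difference of 0.16 ± 0.07 (SE, adjusted p = 0.30). Its levels were 6.97, 7.05, 7.12, 7.14 and 7.17 in CR livers, and ran from 6.97 to 7.50 (median 7.19) in CR-MF, 6.89 to 7.16 (median 7.09) in MF and 6.98 to 7.25 (median 7.15) in C livers. Atg14, which targets the complex to the site of autophagosome formation, was more variable, with levels from 7.57 to 8.41 in C and from 7.84 to 8.68 in CR-MF livers, from 7.83 to 8.19 in MF livers, and of 7.72, 7.95, 7.96, 7.99 and 8.16 in CR livers. Its largest difference, CR-MF minus CR, was 0.19, with a 95% interval from -0.10 to 0.48. Pik3r4, the regulatory subunit VPS15, and Uvrag, which replaces Atg14 in the endosomal complex, had group means within 7.76 to 7.81 and within 8.60 to 8.69. The untested Ambra1 had means from 8.16 to 8.25.

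On the clusters used, the remaining membrane genes gave 0 calls by limma, with 1 unadjusted p under 0.05, that of Wipi1 in CR-MF against C (difference 0.22). Atg2b, a paralogue of Atg2a, had a CR mean of 8.71 and means of 8.55, 8.55 and 8.58 in C, CR-MF and MF livers. CR-MF minus CR was -0.16 (95% interval -0.33 to 0.0012) for the brighter of its 2 clusters, the one used, and -0.23 for the dimmer one. Unadjusted p-values of the dimmer cluster came from a limma fit over all single-symbol clusters that passed the filter. They were 0.0048 in CR-MF against CR, 0.0026 in CR against C (difference 0.24) and 0.030 in MF against CR (-0.17). Wipi1 and Wipi2, which bind PI3P on the forming membrane, had group means within 7.41 to 7.63 and within 9.19 to 9.29. A second, dimmer cluster of Wipi2 gave a CR-MF minus MF difference of 0.29 (unadjusted p = 0.021 in the same limma fit over clusters).

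In the conjugation group, Atg7 came nearest to the threshold. Atg7 is the E1-like enzyme that activates both ATG12 and the ATG8 proteins. Its levels were 8.42, 8.55, 8.64, 8.66 and 8.73 in the CR livers. They ran from 8.73 to 9.08 (median 8.88) in C, 8.58 to 8.90 (median 8.78) in CR-MF and 8.60 to 8.99 (median 8.87) in MF livers, so that the highest CR mouse reached the lowest C mouse and CR overlapped with the other groups. CR minus C was -0.28 ± 0.07 (SE, adjusted p = 0.0501), with -0.30, -0.06 and -0.37 on the 3 plates. MF minus CR was 0.22 ± 0.08 (SE, adjusted p = 0.080). The difference from C in CR livers was opposite in sign to that of Atg9a, and it lay on either side of the threshold depending on the processing.

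Atg3, the E2-like enzyme that hands ATG8 proteins to their lipid, had levels of 9.47, 9.56, 9.64, 9.65 and 9.71 in CR livers. It ran from 9.40 to 9.90 (median 9.68) in CR-MF, 9.34 to 9.68 (median 9.58) in MF and 9.37 to 9.63 (median 9.55) in C livers. CR-MF minus MF was 0.15 ± 0.07 (SE, adjusted p = 0.30). Atg5 and Atg16l1, which with Atg12 form the E3-like complex, had group means within 8.44 to 8.52 and within 7.66 to 7.75. Atg10, the E2-like enzyme for ATG12, had group means within 7.74 to 7.85.

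The ATG4 proteases gave 0 calls by limma or by the intensity-based moderated statistic, and unadjusted p-values under 0.05 came from Atg4a against CR and from Atg4c between CR-MF and MF. Atg4a was 7.74, 7.78, 7.82, 7.96 and 7.98 in CR livers, and ran from 7.90 to 8.33 (median 8.09) in MF, 7.89 to 8.37 (median 8.03) in CR-MF and 7.89 to 8.10 (median 8.00) in C livers. MF minus CR was 0.25 ± 0.08 (SE, adjusted p = 0.067) and CR-MF minus CR was 0.24 ± 0.08 (SE, adjusted p = 0.18). A second cluster of Atg4a gave 0.24 and 0.22. Atg4c was uneven in MF livers, running from 7.33 to 8.52 with a median of 7.45, where C ran from 7.31 to 7.64 and CR-MF from 6.86 to 7.65, and CR had 7.08, 7.35, 7.44, 7.61 and 7.65. CR-MF minus MF was -0.33 ± 0.15 (SE, adjusted p = 0.30).

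The ATG8 genes gave 0 calls by limma or by the intensity-based moderated statistic, and unadjusted p-values under 0.05 came from Gabarap alone, in 3 comparisons. Gabarap ran from 12.28 to 12.46 (median 12.36) in C, 12.17 to 12.31 (median 12.25) in CR-MF and 12.26 to 12.46 (median 12.37) in MF livers, and was 12.21, 12.26, 12.27, 12.28 and 12.34 in CR livers. Both groups with a history of restriction had the lower means, with overlap, and CR-MF minus MF was -0.13 ± 0.04 (SE, adjusted p = 0.14). Gabarapl1 ran from 10.89 to 11.66 (median 11.17) in C, 10.99 to 11.69 (median 11.41) in CR-MF and 10.96 to 11.50 (median 11.34) in MF livers, and was 10.90, 11.12, 11.14, 11.21 and 11.22 in CR livers. Its CR-MF minus CR difference was 0.24 ± 0.13 (SE, adjusted p = 0.45). Gabarapl2 and the LC3 genes Map1lc3a and Map1lc3b had group means within 11.22 to 11.28, 7.94 to 8.01 and 11.03 to 11.13.

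Of the receptors, Sqstm1 (p62) was 11.10, 11.14, 11.15, 11.20 and 11.63 in CR livers. It ran from 11.24 to 11.57 (median 11.43) in C, 11.15 to 11.46 (median 11.27) in CR-MF and 11.18 to 11.65 (median 11.37) in MF livers. Of the 5 CR mice, 4 lay below every C mouse, and B4_5 lay above them all. CR minus C was -0.19 ± 0.08 (SE, adjusted p = 0.20). The untested Nbr1 had group means from 10.19 to 10.25.

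**Figure D4:**
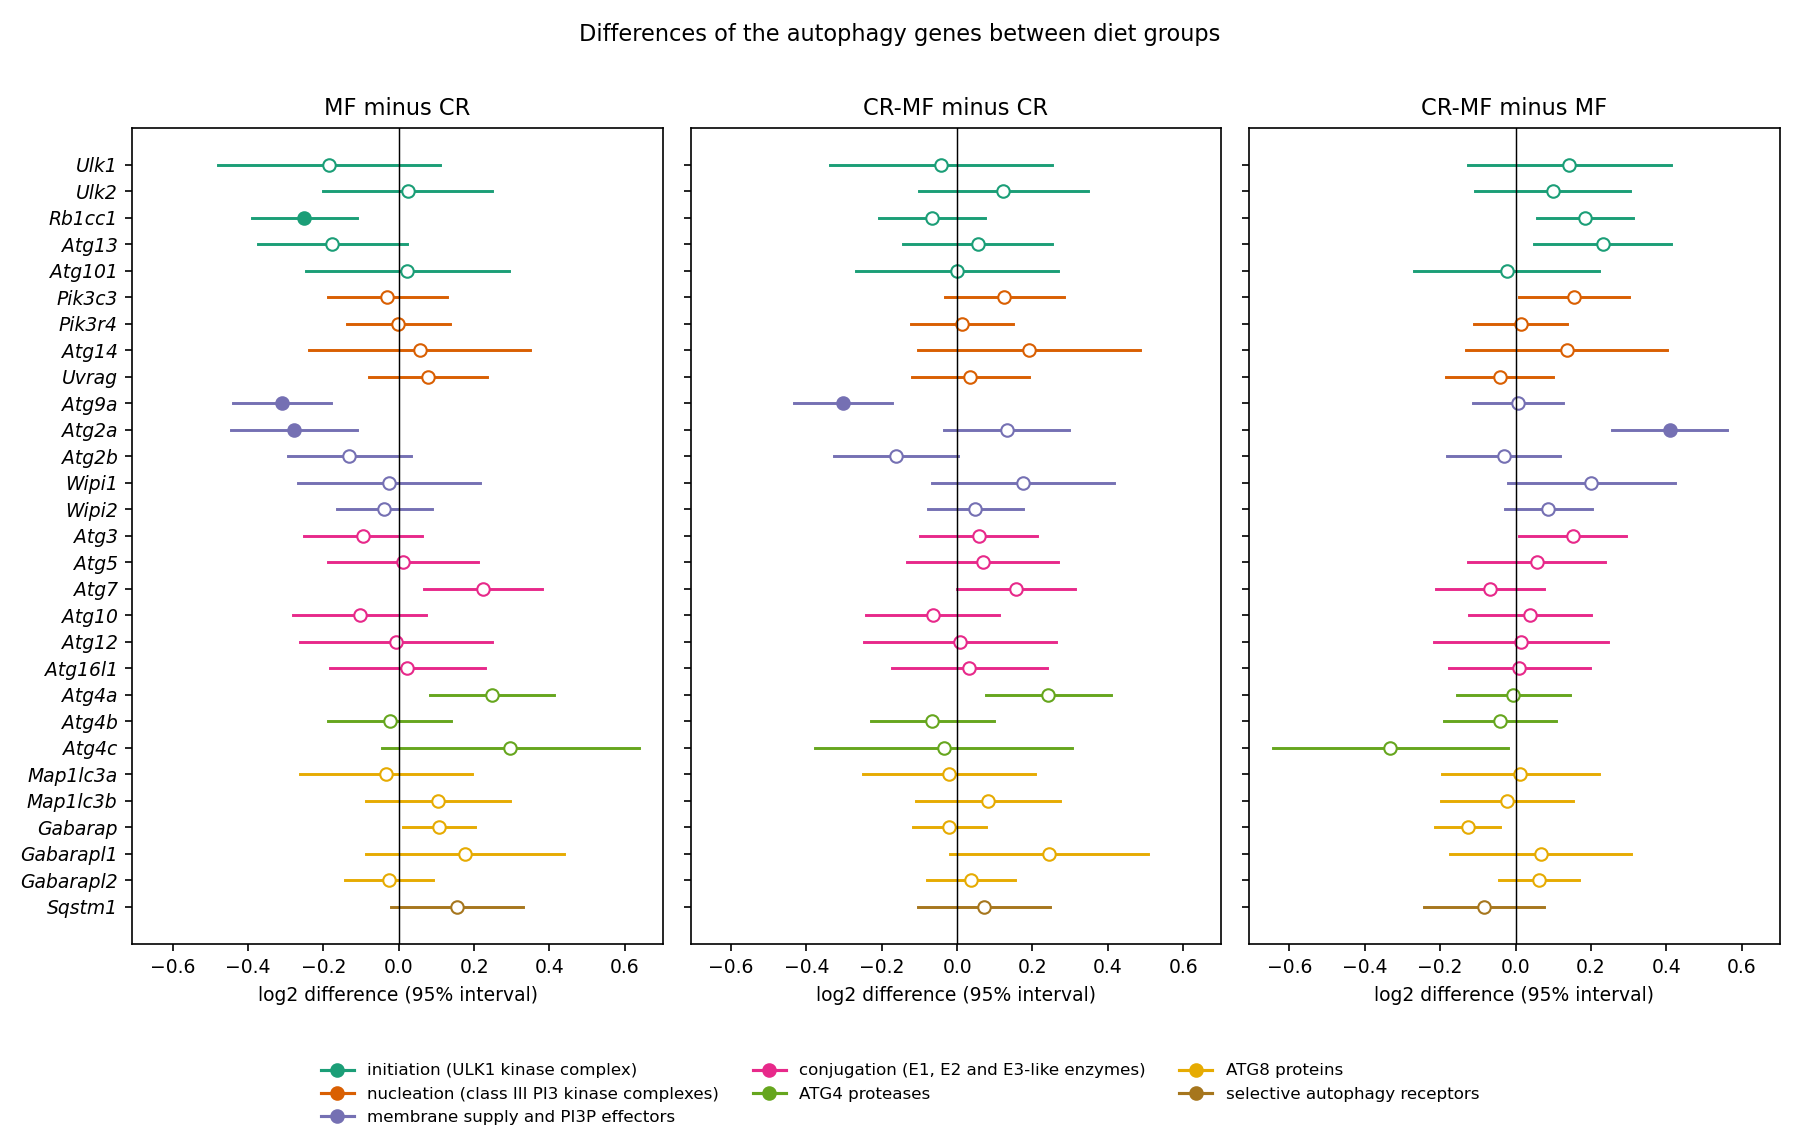
Differences in log2 intensity between groups (points) with 95% intervals (bars) for the 29 tested autophagy genes, coloured by functional group; filled points passed an adjusted p under 0.05 and open points did not. Filled points are Atg9a, Atg2a and Rb1cc1 in MF minus CR, Atg9a in CR-MF minus CR and Atg2a in CR-MF minus MF, and nearly all intervals lie within 0.5 of 0.

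Counted over the list, the switched mice gave 1 call of 29 (3.45%) against CR and 1 of 29 (3.45%) against MF. CR-MF against CR gave 0 higher and 1 lower of 29 (Atg9a), where 0.236% and 0.364% of all genes were called higher and lower. At an unadjusted p under 0.01 there were 2 (6.90%; Atg9a and Atg4a), against 4.62% of all genes. CR-MF against MF gave 1 higher (Atg2a) and 0 lower, against 0.55% and 0.893%. It gave 3 at an unadjusted p under 0.01 (10.3%; Atg2a, Rb1cc1 and Gabarap), against 5.77%. The medians over the 29 genes were 0.04 and 0.01, against -0.00092 and -0.0019 over all genes. Because MF against CR, CR-MF against CR and CR-MF against MF share arrays in pairs, their counts are not independent of each other.

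Against the control diet, CR gave 1 higher of 29 (Atg9a) and 0 lower, where 0.765% and 0.808% of all genes were called, and 3 genes at an unadjusted p under 0.01 (Atg9a, Atg7 and Rb1cc1), against 8.03%. CR-MF against C gave 0 calls, against 0.136% higher and 0.164% lower of all genes. At an unadjusted p under 0.05 there were 3 (Atg2a, Gabarap and Wipi1), and 0 were under 0.01, against 3.52%. MF against C gave 0 calls by limma, where 0% of all genes were called in either direction, and 1 gene (Atg2a) under an unadjusted p of 0.01, against 0.843%. The intensity-based moderated statistic also gave 0 calls in both of these comparisons. All 29 intervals of CR-MF minus C, and 28 of 29 of MF minus C, lay within 0.5 of 0.

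Around the core machinery, 100 further genes in 7 lists were examined, of which 89 were tested. In MF against CR, 1 was higher and 2 were lower, where 2.8% and 2.62% of all genes were. In CR-MF against MF, 1 was lower, where 0.893% of all genes were, and the other comparisons gave 0. These shares were near or below those of all genes in MF against CR. The list of mTORC1 with its Rag, Ragulator and TSC regulators had 22 genes tested and 1 called, Rragd, a Rag GTPase that brings mTORC1 to the lysosome. Rragd was 4.78, 4.83, 5.14, 5.25 and 5.38 in CR livers and ran from 5.12 to 6.68 (median 5.82) in MF, 4.73 to 5.36 (median 5.04) in CR-MF and 4.71 to 6.42 (median 5.54) in C livers. Its level in MF livers differed from CR by 0.77 ± 0.23 (SE, adjusted p = 0.042), a 1.71-fold difference at a dim signal, and the groups overlapped. CR-MF minus MF was -0.74 ± 0.21 (SE, adjusted p = 0.066).

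The selective autophagy and mitophagy list had 19 genes tested and 1 called. Pink1, the kinase that marks damaged mitochondria, was 9.68, 9.74, 9.77, 9.85 and 9.88 in CR livers, and ran from 9.08 to 9.72 (median 9.39) in MF, 9.35 to 9.92 (median 9.56) in CR-MF and 9.30 to 9.73 (median 9.59) in C livers. MF minus CR was -0.43 ± 0.11 (SE, adjusted p = 0.019), and 1 MF mouse reached the CR range. CR-MF lay between, at -0.20 ± 0.11 (SE) from CR and 0.24 ± 0.10 from MF, and neither difference passed (adjusted p = 0.46 and 0.24).

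Of 15 other core and accessory genes tested, Tmem41b and Nrbf2 were called. Tmem41b, a lipid scramblase of the endoplasmic reticulum, was 9.24, 9.35, 9.39, 9.45 and 9.61 in CR livers, and ran from 8.91 to 9.28 (median 9.05) in MF, 8.88 to 9.36 (median 9.12) in CR-MF and 8.89 to 9.29 (median 9.07) in C livers. MF minus CR was -0.33 ± 0.09 (SE, adjusted p = 0.037), CR-MF minus CR was -0.27 ± 0.09 (SE, adjusted p = 0.18) and CR minus C was 0.33 ± 0.09 (SE, adjusted p = 0.055). The CR mean was the highest of the 4. Nrbf2, a subunit of the ATG14 form of the PI3 kinase complex, ran from 10.03 to 10.40 (median 10.25) in CR-MF, 10.44 to 10.88 (median 10.56) in MF and 10.29 to 10.68 (median 10.55) in C livers, and was 10.34, 10.40, 10.42, 10.53 and 10.73 in CR livers. Every CR-MF mouse lay below every MF mouse, and CR-MF minus MF was -0.35 ± 0.08 (SE, adjusted p = 0.016).

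**Figure D5:**
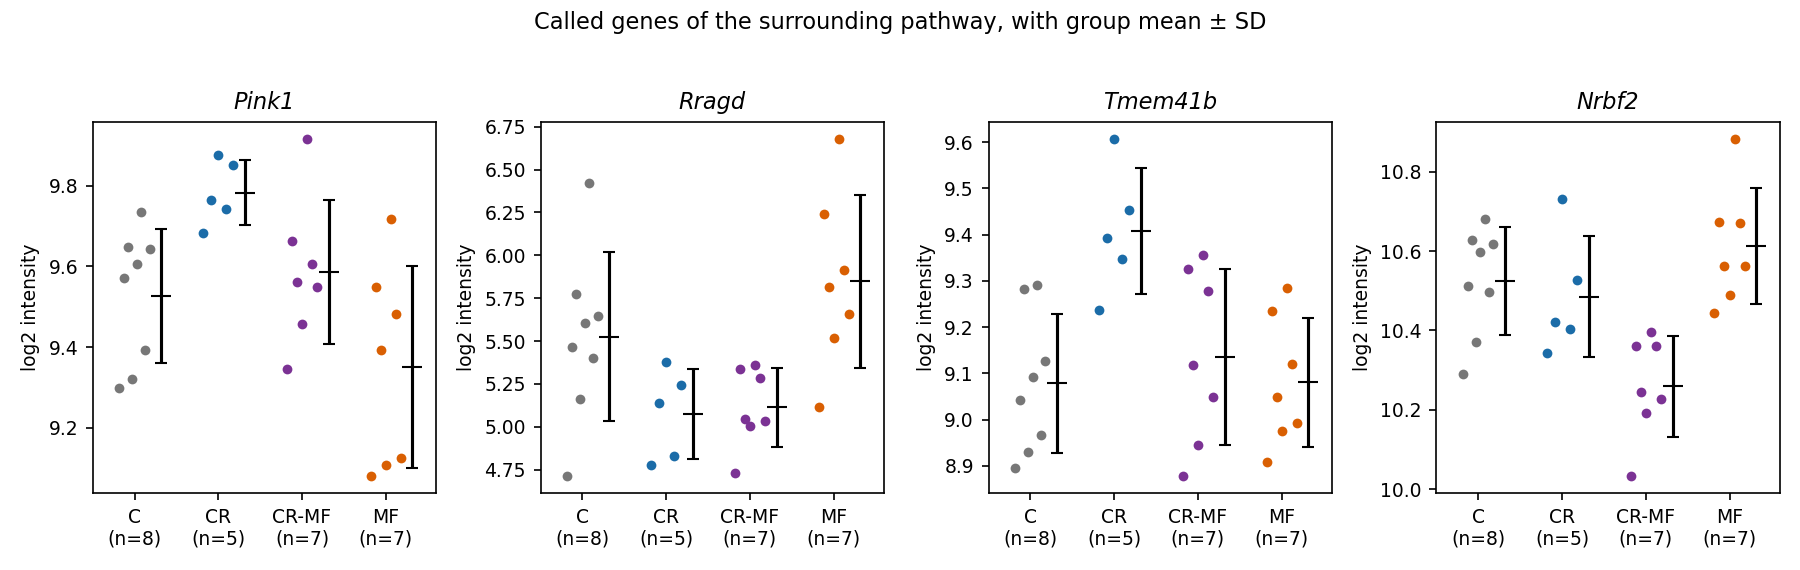
Log2 intensity of Pink1, Rragd, Tmem41b and Nrbf2, the 4 called genes of the surrounding pathway lists, in each liver by diet group (points), with the group mean ± SD beside the points and an axis of its own per panel. The CR mean is the highest for Pink1 (9.78) and Tmem41b (9.41), the MF mean is the highest for Rragd (5.85), and the CR-MF mean is the lowest for Nrbf2 (10.26).

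The other lists gave 0 calls by limma in MF against CR, a comparison in which 3315 of all 13993 genes had an unadjusted p under 0.05. Of 14 transcription factors known to act on autophagy genes, 1 had an unadjusted p under 0.05, Crtc2 (MF minus CR -0.19, adjusted p = 0.12), and Tfeb (-0.07), Foxo1 (-0.11), Foxo3 (-0.19) and Ppara (-0.15) did not. Over the 14, 6 differences were positive and 8 negative, up to 0.26. Under an unadjusted p of 0.05 were 3 of the 14 in CR against C and 4 in CR-MF against C, where 2769 and 1598 of all 13993 genes were. In CR-MF against CR, CR-MF against MF and MF against C, the counts were 1, 2 and 0. Of 10 autophagosome-lysosome fusion genes, 3 had an unadjusted p under 0.05, and their differences ran from -0.26 to 0.19 over the list. A list of 6 genes was drawn up as inhibitors of the class III PI3 kinase step, although 1 of them, Dapk2, is not an established inhibitor. The 5 tested had positive differences, from 0.08 for Mtmr14 to 0.37 for Bcl2. Dapk2 (0.34) was the 1 gene under an unadjusted p of 0.05. The 4 tested genes of chaperone-mediated autophagy ran from 0.01 to 0.18, with 0 under an unadjusted p of 0.05.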

How the data were processed

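Liver RNA was hybridised to Affymetrix Mouse Gene 1.1 ST arrays, 1 per mouse. The authors processed the arrays with Robust Multiarray Average (version not given in the sources used here), and the deposited unit is log2 intensity. Transcript clusters with exactly 1 gene symbol were used (21218 of 35556), and the brightest stood for a gene with several. Genes needed an intensity over 20 on 5 or more arrays and an interquartile range over 0.1, as in the methods of the study. Group means of the 27 arrays were fitted with R 4.3.3 and limma 3.58.1 (lmFit, eBayes with trend, 23 residual degrees of freedom), after the fit was tested on simulated data. Unless another setting is named, p-values come from this fit, and adjusted ones are Benjamini-Hochberg values over 13993 genes. Intervals are at 95%. The labels tie each array to a mouse of its own, and the number of arrays limits the precision.

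Members and lists were chosen with earlier results of these data known. Genes named with values are members called in any comparison, the 2 members with the smallest F-test p per functional group, and called genes of the surrounding lists, with group means or single values given for other members. Alternatives were other normalizations, filters, moderation, array weights, array subsets and blocks, and leaving out each mouse. Leaving out mice BC4_11 and BC4_15 and the well row block were added after seeing the data. Clusters with several symbols or with none were left out, and second clusters of a gene are given only where named as such.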

Additional observations from a re-analysis of the deposited data

Results flagged for a closer look

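A mouse stood apart from its group in 6 of 124 combinations of a gene and a group (4.84%), where chance gives about 1 in 20. In the CR-MF mouse BC4_15, Ulk2 was lowest at 8.44 (next mouse 9.00) and Atg101 was lowest at 6.56 (next 6.99). In the CR mouse B4_5, Atg2b was lowest at 8.42 (next 8.74) and Sqstm1 was highest at 11.63 (next 11.20). Atg10 was highest at 8.10 in the CR mouse B4_13 (next 7.82), and Wipi2 was lowest at 9.13 in the C mouse A4_5 (next 9.28).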

How the results depend on the processing

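The call of Atg2a between CR-MF and MF held under all 15 alternatives tried for it (adjusted p from 0.0040 to 0.031). The well row as a block could not be among them, because all CR-MF arrays lay in row H and all MF arrays in row G. The call of Atg9a between MF and CR held under 14 of 16, the exceptions being plate G150 alone (adjusted p = 0.075) and the well row as a block (0.12). Of 256 single-gene values from the alternatives and from leaving out each mouse, 209 stayed on their side of the threshold and 47 did not pass. No direction reversed, but all of these values belong to differences picked because the main fit had called them. Leaving out a mouse from outside the groups compared also cannot change a difference. The lack of reversals therefore says little about how firm the directions are. Of the members called, MF against CR gave 5 with array weights (with Atg4a and Atg7 added), 1 with only the groups compared, and 0 on plate G150 alone or with the well row as a block. CR-MF against CR gave 0 with only the groups compared, on G150 alone, with the replicate block and without BC4_11 and BC4_15. CR against C gave 2 (Atg7 joining Atg9a) with quantile normalization, a stricter filter, the intensity filter alone, the intensity-based moderated statistic, the plate as a block, and without BC4_11 and BC4_15. With only the groups compared it gave 1, Atg7, with Atg9a lost. It gave 3 with array weights (Rb1cc1 added) and 0 on G150 alone, with the well row and with the replicate block. The F test over 4 groups gave 4 with quantile normalization or array weights, 0 on G150 alone and 1 with the replicate block. With each mouse left out in turn, calls ranged from 1 to 4 in MF against CR, from 0 to 1 in CR-MF against CR, stayed at 1 in CR-MF against MF, and ranged from 0 to 3 in CR against C, 0 to 0 in CR-MF against C and in MF against C, and 1 to 3 in the F test. Animal numbers recur across groups. Of 27 pairs of mice with the same number, 13 had deviations from their group means correlated over 0.1 (median 0.0942). Of 244 pairs with other numbers, 66 did (median -0.023). The main fit did not take the numbers as pairs, and what they mark was not tested. With the animal number as a replicate block, MF against CR gave 2, with Rb1cc1 lost, and CR-MF against MF 1. Fewer arrays enter the fits on G150 alone and on the groups compared. The cause of the other changes was not tested.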
